A study of Homo sapiens with 24 samples.

Results

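ETV5 and 9 related genes of the ERK pathway were followed across the 8 groups of an RNA-seq series. They are the ETS transcription factor genes ETV1, ETV4 and ETV5, the Sprouty genes SPRY1, SPRY2 and SPRY4, the Sprouty-related genes SPRED1 and SPRED2, and the dual-specificity phosphatase genes DUSP4 and DUSP6. They were found by symbol among the 58721 gene IDs of the count data, and 10 of 10 were present. The set was chosen by the fall of ETV5 and SPRY4 with an siRNA against ZNF593, so the measured values of that contrast picked the genes and are given below as a description, with no test. Each gene also passed the filter on low counts in both cell lines.

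The series held 24 libraries in 8 groups of 3. LN-229, an established glioblastoma line labelled wild type, was given siRNA to lower ZFX (siZFX) or ZNF593 (siZNF593), or a control oligo (siControl), and in a further set both targeting siRNAs together (the double knockdown) or the control oligo again (siControl_2). The labels give both control sets the same treatment, and only the names of the data mark siControl_2 as the control made for the double knockdown. The other 3 groups came from a 293T line, derived from embryonic kidney, that lacks ZFX and ZNF711 by knockout (DKO cells). These were transfected with a ZFX construct named ZFX12_13 and labelled only as FLAG-tagged ZFX, with FLAG-tagged wild-type ZFX (wtZFX), or with the empty vector pCMV6-Entry (pCMV6), so the knockouts are shared by construct and control cells alike. The labels state neither what ZFX12_13 alters nor whether the DKO line is 1 clone. The libraries of a group are called biological replicates without mention of separate cultures, and p-values measure the spread between these libraries, which may be technical.

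ZFX is a zinc finger protein that activates transcription from promoters, and ZNF711 belongs to the same protein family, while ZNF593 is a smaller protein with a zinc finger. The 10 genes lie downstream of receptor tyrosine kinases, RAS and the kinases RAF, MEK and ERK. When ERK is active it relieves repression by the protein Capicua (CIC), a DNA-binding repressor of ETV1, ETV4 and ETV5, and raises transcription of genes that dampen the pathway in turn. Sprouty proteins act between the receptors and RAS, SPRED proteins bring the RAS inactivator neurofibromin to the membrane, DUSP6 removes phosphates from ERK in the cytoplasm, and DUSP4 does so in the nucleus. In gliomas, where receptor kinases are often active, transcripts of this group are commonly used as a readout of the pathway.

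Reads counted on genes numbered 16223239 to 30159260 per library. Levels are in CPM, counts scaled to a common library total, over totals corrected by TMM factors for each library's composition. In bulk RNA, fewer cells of a type and less RNA per cell cannot be told apart. Changes are log2 ratios from edgeR's quasi-likelihood fit, and a gene was called at a Benjamini-Hochberg adjusted p under 0.05 over all tested genes, which were 17684 in LN-229 and 19376 in DKO cells. ZFX was at 49.8% of siControl_2 in the double knockdown and at 31.7% of siControl with siZFX, and reads at ZNF593, which a gene on the opposite strand overlaps, were at 8.86% of siControl_2 in the double knockdown and 6.56% of siControl with siZNF593. Replicate 3 of the double knockdown stood apart, with correlations of log2 CPM of 0.970 with its 2 partners, against 0.979 to 0.994 in the other 22 replicate pairs. Of 11 glial and glioma markers 8 were above 10 CPM in every LN-229 group, but the astrocyte marker GFAP averaged 2.62 CPM and SOX9 1.08 CPM in siControl. Of 8 markers of embryonic kidney and epithelium 3 were above 10 CPM in every DKO group and 2 were under 1 CPM. The lists did not separate the lines by these counts, since 3 of the 8 were also above 10 CPM in every LN-229 group and 6 of the 11 glial markers in every DKO group. Immune markers were at 1.70 CPM or less and endothelial markers at 1.40 CPM or less in every group.

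Per kilobase of exon, SPRY2 was the most abundant of the 10 genes in siControl LN-229 cells and SPRY1 the least. SPRY2 stood at 51.3 ± 2.40 CPM per kb (SD, n = 3) and DUSP4 at 27.0 ± 0.322 CPM per kb. SPRED2 and SPRY4 followed at 24.5 and 23.2 CPM per kb and DUSP6 and SPRED1 at 19.8 and 19.2 CPM per kb, and the libraries of each of these pairs overlapped. ETV5 stood at 18.0 ± 0.106, ETV1 at 16.9 ± 0.821, ETV4 at 12.3 ± 1.20 and SPRY1 at 0.975 ± 0.0574 CPM per kb, with no overlap between neighbours. In siControl_2 cells SPRY4, at 42.9 ± 0.634 CPM per kb, came second after SPRY2. ETV5 was second lowest in siZNF593 cells, at 2.81 ± 0.204 CPM per kb, and in the double knockdown, at 5.18 ± 0.0618 CPM per kb.

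**Figure D1:**
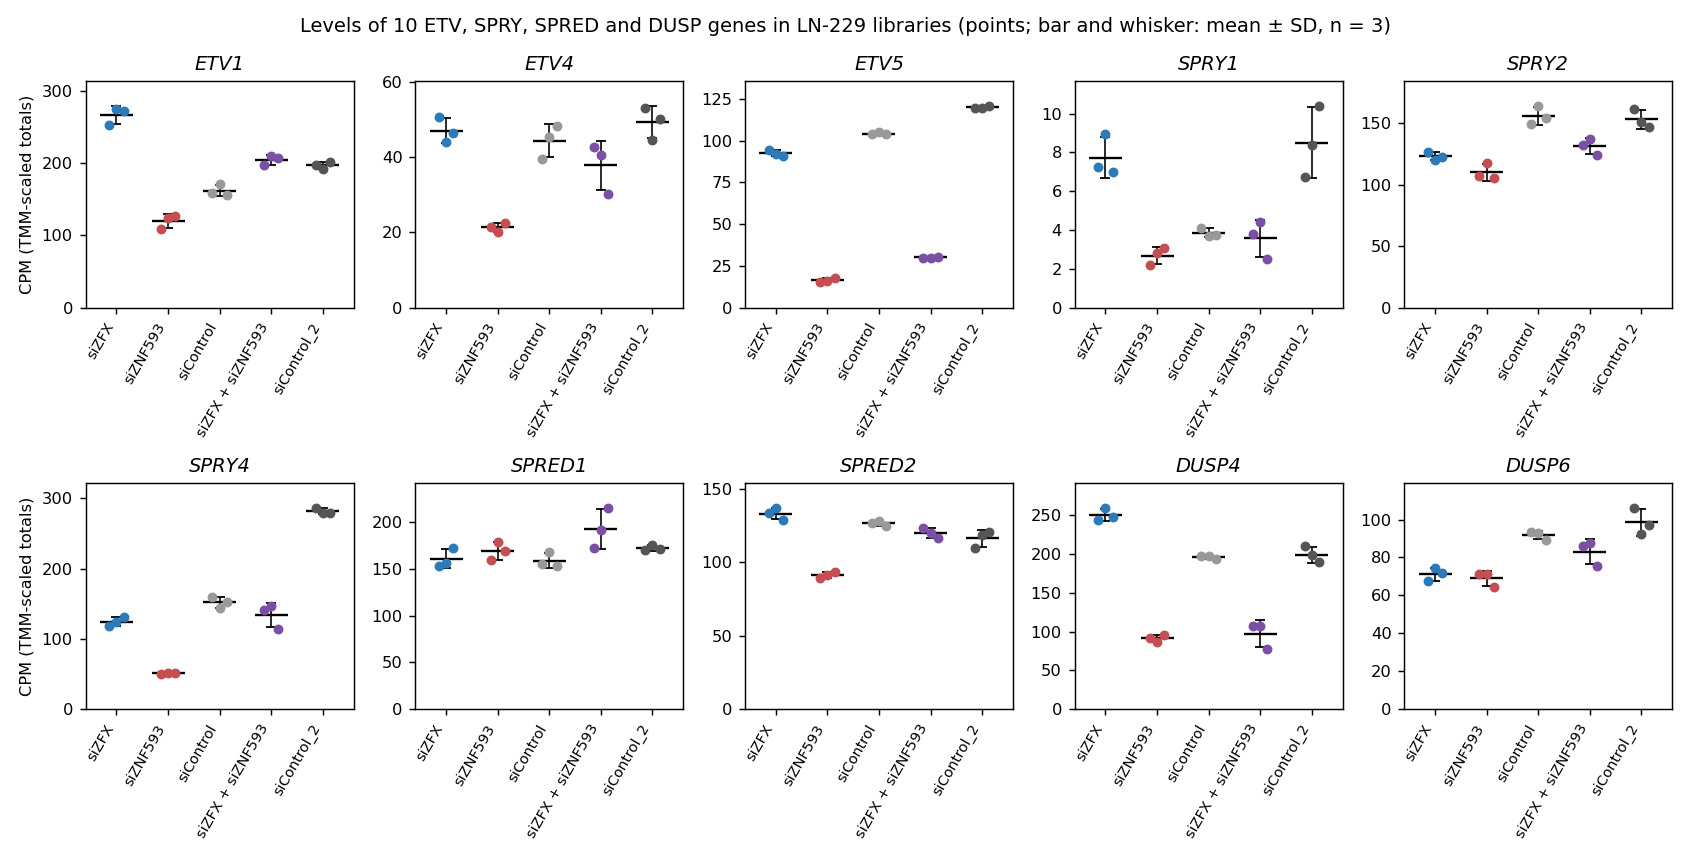
Levels of the 10 genes in LN-229 in CPM over TMM-scaled totals (vertical axes, from 0), 1 panel per gene, with 1 point per library, a bar at the mean and a whisker of ± SD (n = 3). ETV5 sits at 15.2 to 17.5 CPM in siZNF593 and at 29.8 to 30.5 CPM in the double knockdown, below both control sets, while SPRY4 in siControl_2 sits above every other group.

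Promoter windows from RefSeq (build GRCh38.p14) were used for 7 of the 10 genes. These 16 windows run from 250 bases before a transcription start to 50 bases after it. They were searched on both strands for the octamers bound by CIC (TCAATGAA, TCAATGGA, TGAATGAA and TGAATGGA), for the ETS core CCGGAA and for AGGCCT, the core of the ZFX motif, and no match overlapped a match of another motif. A CIC octamer was in 2 of the 16 windows and in 3.77% of all 35116 windows of that length. CCGGAA was in 5 of 16, against 17.2% of all windows, and AGGCCT in 1 of 16, a window of SPRED2, against 10.9% of all windows. Several of the 6 windows of ETV1 overlap, so the windows are not independent. No window of ETV4, ETV5 or DUSP4 was searched, so the counts leave out these genes. The stretches below run from 250 bases before the start to 30 bases after it, all on the minus strand and written 5′ to 3′, with matches in capitals. DUSP6 and ETV1 are shown because they hold the octamer, SPRY2 because the window shown holds the ETS core alone, and SPRY4 because its single window holds none of the 3 motifs. The stretches are chr12:89352472-89352751 for DUSP6, chr7:13991396-13991675 for ETV1, chr13:80341097-80341376 for SPRY2 and chr5:142324218-142324497 for SPRY4.
DUSP6: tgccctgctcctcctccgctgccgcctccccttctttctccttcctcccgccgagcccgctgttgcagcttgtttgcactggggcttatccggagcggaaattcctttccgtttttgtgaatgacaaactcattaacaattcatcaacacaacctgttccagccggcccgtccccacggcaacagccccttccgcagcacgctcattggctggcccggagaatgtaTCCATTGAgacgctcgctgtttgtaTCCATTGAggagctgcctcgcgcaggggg
ETV1: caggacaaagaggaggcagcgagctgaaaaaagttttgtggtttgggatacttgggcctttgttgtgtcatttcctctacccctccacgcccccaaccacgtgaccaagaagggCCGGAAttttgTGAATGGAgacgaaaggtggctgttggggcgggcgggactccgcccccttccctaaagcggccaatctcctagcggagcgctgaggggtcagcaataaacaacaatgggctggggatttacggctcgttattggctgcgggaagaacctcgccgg
SPRY2: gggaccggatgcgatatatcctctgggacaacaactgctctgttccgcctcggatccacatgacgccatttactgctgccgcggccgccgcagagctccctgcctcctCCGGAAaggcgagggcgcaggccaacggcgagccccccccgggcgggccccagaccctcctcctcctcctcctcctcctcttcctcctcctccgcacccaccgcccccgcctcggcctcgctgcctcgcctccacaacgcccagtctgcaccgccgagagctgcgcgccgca
SPRY4: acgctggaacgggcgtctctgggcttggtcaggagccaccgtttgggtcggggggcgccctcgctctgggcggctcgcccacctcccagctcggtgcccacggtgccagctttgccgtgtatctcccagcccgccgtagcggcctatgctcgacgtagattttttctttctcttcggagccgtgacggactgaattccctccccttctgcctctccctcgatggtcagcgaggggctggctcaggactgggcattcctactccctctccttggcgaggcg
In DUSP6 the octamer occurs at 24 bases before the start and again from base 2 after it, in ETV1 at 125 bases before the start and 136 bases before it the ETS core, and in SPRY2 the ETS core lies 142 bases before the start. These matches describe letters and show no binding.

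In the contrast that chose the genes, siZNF593 against siControl, ETV5 had the lowest log2 change of the 10 genes. ETV5 (ENSG00000244405.7, GRCh38, chromosome 3, 186046308 to 186110318, minus strand) encodes an ETS activator that is itself a target of ERK signalling through CIC. It had 15.2, 16.1 and 17.5 CPM in siZNF593 libraries, against 104, 105 and 104 CPM in siControl libraries, a log2 change of -2.68 (SE 0.07), or 15.6% of siControl. The siZNF593 libraries lay in a narrow range far below the siControl libraries. SPRY4 (ENSG00000187678.9, chromosome 5, 142310427 to 142326455, minus strand), a Sprouty inhibitor of RAS activation, had 50.7, 51.6 and 52.2 CPM with siZNF593 and 159.6, 143 and 153 CPM in siControl (log2 change -1.56, SE 0.08). DUSP4 (ENSG00000120875.8), the nuclear ERK phosphatase, had 91.3, 87.2 and 95.3 CPM with siZNF593 and 197, 197 and 193 CPM in siControl (log2 change -1.10, SE 0.09). ETV4, the close relative of ETV5, had 21.5, 20.1 and 22.4 CPM with siZNF593 and 39.6, 45.3 and 48.1 CPM in siControl (log2 change -1.06, SE 0.12). Each of these genes had no siZNF593 library as high as any siControl library.

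SPRY1, SPRY2, SPRED2, ETV1 and DUSP6 had log2 changes of -0.53, -0.50, -0.47, -0.43 and -0.41 with siZNF593. SPRED1, the other SPRED gene, averaged 169 ± 9.63 CPM with siZNF593 and 159 ± 7.63 CPM in siControl (log2 change 0.09, SE 0.08), with overlapping libraries. In total 9 of the 10 genes lay below siControl with no overlap, which was so of 22.7% of all tested genes, and nothing is read from that count because this contrast chose the genes. Set against siControl_2 in place of siControl, the log2 change of SPRY4 was -2.45 and that of SPRY1 -1.66.

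The double knockdown against siControl_2 shares no library with that contrast and asks what happens to these genes when both siRNAs are given. ETV5 fell to 25.1% of siControl_2, and SPRY1, SPRY4 and DUSP4 fell to 42.0%, 47.7% and 48.8%. ETV4, SPRY2 and DUSP6 fell by smaller amounts, and ETV1, SPRED1 and SPRED2 were not called. In all 7 of the 10 genes were lower and 0 were higher, against 20.6% and 17.6% of all tested genes, and 38.2% in either direction. At an unadjusted p under 0.05 there was 1 higher gene, and DESeq2 called 0 higher and 7 lower. The median log2 change was -0.31 over the 10 genes and 0.0060 over all tested genes.

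Among the transcription factors, ETV5 had 29.9, 29.8 and 30.5 CPM in the double knockdown, against 119, 119.8 and 121 CPM in siControl_2. The libraries of each group agreed within about 1 CPM and the groups lay far apart, with a log2 change of -1.996 (SE 0.07, 95% interval -2.14 to -1.85, adjusted p = 3.8e-15). ETV5 kept its call and direction under every one of 18 alternatives, at log2 changes of -2.003 to -1.79 and adjusted p of at most 1.8e-06. A small part of its exons, 2.83%, is shared with DGKG on the same strand. ETV4 had 42.6, 40.5 and 30.3 CPM in the double knockdown, against 53.0, 44.6 and 50.2 CPM in siControl_2. Its groups did not overlap, and its log2 change of -0.38 (SE 0.11, adjusted p = 0.0092) was -0.07 (adjusted p = 0.50) with offsets for GC content and length. ETV1, which encodes the third factor of this subfamily, had 197, 209.9 and 207 CPM in the double knockdown and 198, 193 and 202 CPM in siControl_2, with overlapping groups (log2 change 0.05, 95% interval -0.09 to 0.20, adjusted p = 0.59).

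Of the Sprouty genes, SPRY4 and SPRY1 fell by more than 2-fold and SPRY2 by less. SPRY4 had 142, 146 and 115 CPM in the double knockdown, against 286, 279.5 and 279 CPM in siControl_2 (log2 change -1.07, SE 0.08, adjusted p = 4.7e-10). Every double knockdown library lay far below the siControl_2 libraries, and replicate 3, which stood apart over all genes, was the lowest. SPRY1 (ENSG00000164056.10, chromosome 4, 123396795 to 123403760, plus strand), scarce in LN-229, had 95, 116 and 64 counts (3.79, 4.39 and 2.51 CPM) in the double knockdown, against 146, 167 and 203 counts (6.73, 8.38 and 10.4 CPM) in siControl_2. Its groups did not overlap, though the siControl_2 libraries were widely spread (log2 change -1.25, SE 0.21, adjusted p = 6.3e-05). SPRY2, the most abundant of the Sprouty genes per kilobase, had 133, 137 and 124 CPM in the double knockdown and 161, 151 and 147 CPM in siControl_2 (log2 change -0.22, SE 0.07, adjusted p = 0.0137).

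Of the phosphatase genes, DUSP4 had 107, 107 and 77.3 CPM in the double knockdown, against 209.9, 198 and 189 CPM in siControl_2 (log2 change -1.03, SE 0.09, adjusted p = 8.1e-09). Replicate 3 was again the lowest, and the call held in 18 of 18 alternatives, at log2 changes of -1.09 to -0.89. DUSP6, the cytoplasmic ERK phosphatase, had 86.2, 87.4 and 75.6 CPM in the double knockdown, against 106, 92.2 and 97.4 CPM in siControl_2 (log2 change -0.25, SE 0.08, adjusted p = 0.0139). DUSP6 shares 40.5% of its exon bases with AC024909.2 on the opposite strand, and unstranded reads from the 2 cannot be told apart. SPRED1 averaged 193 ± 21.6 CPM in the double knockdown and 172 ± 2.95 CPM in siControl_2 (log2 change 0.16, 95% interval 0.0011 to 0.32, adjusted p = 0.107). SPRED2, a close relative of SPRED1, averaged 120.0 ± 3.30 and 116 ± 5.86 CPM in these groups (log2 change 0.05, 95% interval -0.09 to 0.18), and both genes had overlapping libraries.

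The calls of ETV4, SPRY2 and DUSP6 were lost, leaving 4 genes called, when the fit held only the double knockdown and siControl_2 and also without replicate 1 of siControl_2. Without replicate 3 of the double knockdown the count was 7 lower and 0 higher.

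siZFX against siControl asks what lowering ZFX alone does, and it split the set. ETV1, SPRY1 and DUSP4 rose and SPRY2, SPRY4 and DUSP6 fell, so 3 of the 10 genes were higher and 3 lower, against 13.8% and 17.1% of all tested genes and 30.9% in either direction. The siControl libraries here are the ones that the choosing contrast used. The median log2 change was 0.05 over the 10 genes and 0.02 over all tested genes.

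ETV1 had 253, 275 and 273 CPM with siZFX, against 159, 171 and 156 CPM in siControl (log2 change 0.72, SE 0.07, adjusted p = 3.2e-08), and it was the only ETV gene called. ETV5 had 94.3, 91.8 and 90.9 CPM with siZFX, below its 104 to 105 CPM in siControl with no overlap (log2 change -0.17, SE 0.07, adjusted p = 0.0518). It missed the threshold in this fit and passed it in 4 of 17 alternatives, with DESeq2 (adjusted p = 0.0195) and against siControl_2 (log2 change -0.38, adjusted p = 9.1e-05) among them, and the adjusted p ranged up to 0.19. ETV4 averaged 47.0 ± 3.43 CPM with siZFX and 44.3 ± 4.34 CPM in siControl, with overlapping libraries (adjusted p = 0.62).

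SPRY1 had 7.26, 8.93 and 6.98 CPM with siZFX, against 4.12, 3.71 and 3.75 CPM in siControl (log2 change 0.998, SE 0.21, adjusted p = 7.6e-04). Against siControl_2 its log2 change was -0.14 (adjusted p = 0.65), so its direction depends on the control set. SPRY2 had 127, 119.9 and 123 CPM with siZFX, below 149, 164 and 154 CPM in siControl (log2 change -0.34, SE 0.07, adjusted p = 5.1e-04). SPRY4 had 119, 124 and 131 CPM with siZFX, below its siControl libraries at 143 to 159.6 CPM (log2 change -0.29, SE 0.08, adjusted p = 0.0068), and its log2 change was -1.18 against siControl_2.

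The phosphatase genes moved apart. DUSP4 had 244, 259 and 248 CPM with siZFX, above its 193 to 197 CPM in siControl (log2 change 0.36, SE 0.09, adjusted p = 0.0038). DUSP6 had 67.5, 74.2 and 71.9 CPM with siZFX, below 93.2, 92.7 and 89.2 CPM in siControl (log2 change -0.36, SE 0.08, adjusted p = 7.8e-04). SPRED1 and SPRED2 were not called, at log2 changes of 0.02 (95% interval -0.14 to 0.18) and 0.07 (95% interval -0.06 to 0.21).

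The difference between the effects of the double knockdown and of siZFX, each against its own control set, was tested as a contrast, which includes the siControl libraries that the choosing contrast used. ETV5 fell further in the double knockdown by 1.82 on the log2 scale (SE 0.10, adjusted p = 1.1e-11) and DUSP4 by 1.39 (SE 0.13, adjusted p = 4.6e-08). For SPRY1 the difference was -2.25 (SE 0.30, adjusted p = 9.4e-06), for SPRY4 -0.78 (SE 0.11, adjusted p = 2.1e-05), for ETV1 -0.67 (SE 0.10, adjusted p = 3.0e-05) and for ETV4 -0.47 (SE 0.16, adjusted p = 0.0422). The difference was not called for SPRY2, DUSP6 and SPRED1, at 0.12, 0.12 and 0.14, or for SPRED2, at -0.03. So 6 of the 10 genes were lower and 0 higher, against 8.97% and 8.76% of all tested genes and 17.7% in either direction. At an unadjusted p under 0.05 the counts were also 6 lower and 0 higher, as they were by DESeq2. With siControl on both sides, 5 genes were lower and 2 higher (SPRED1 at 0.26 and DUSP6 at 0.22).

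The call of ETV4 was lost in 13 of 23 alternatives, among them 8 in which 1 library was left out, where its adjusted p reached 0.14. ZFX itself was lowered less in the double knockdown than with siZFX (difference in log2 change 0.65, SE 0.17, adjusted p = 0.0112), and the part of this in the differences above was not tested.

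**Figure D2:**
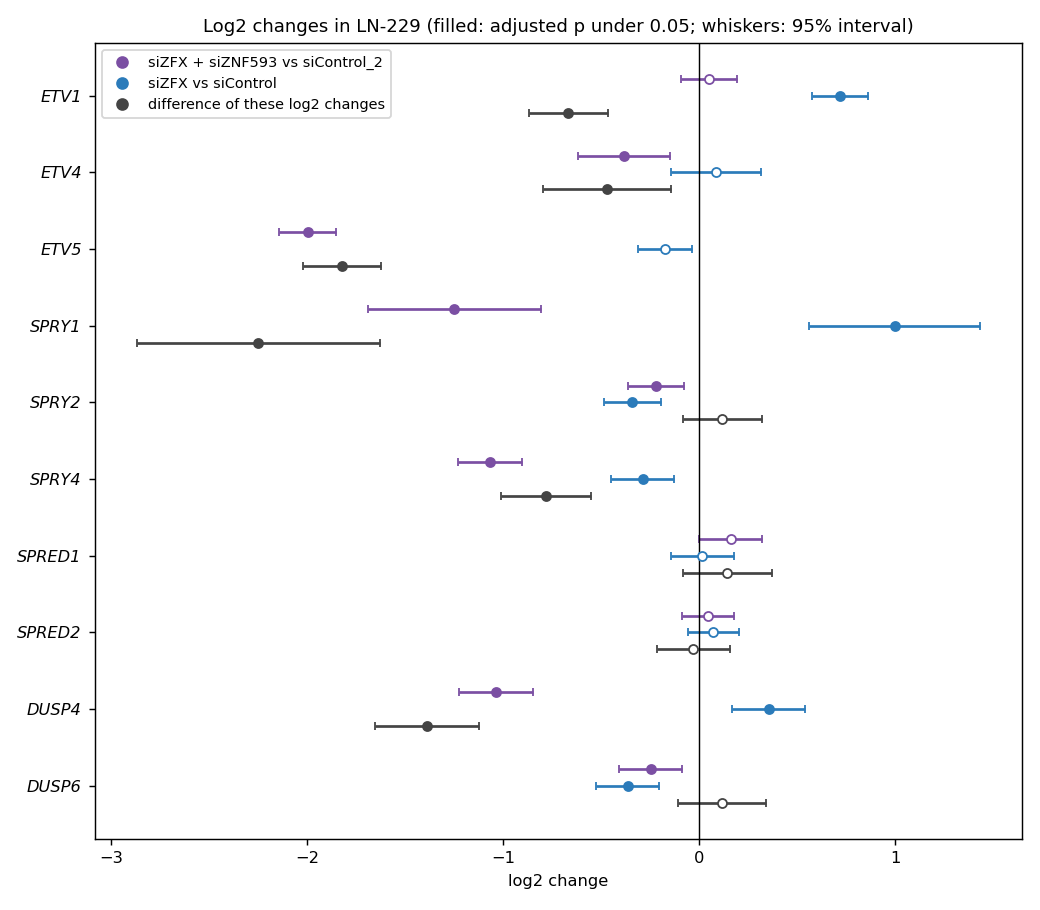
Log2 changes of the 10 genes in LN-229 (horizontal axis) with 95% intervals, for the double knockdown against siControl_2, siZFX against siControl and the difference of these, with filled points where the adjusted p is under 0.05. ETV5, SPRY1, SPRY4 and DUSP4 lie at -1.03 or lower in the double knockdown, and the filled points above 0 with siZFX are ETV1, SPRY1 and DUSP4.

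The control sets themselves differed at some of these genes, in a comparison that again uses the siControl libraries of the choosing contrast. SPRY4 was 1.85-fold higher in siControl_2, with 286, 279.5 and 279 CPM, against 159.6, 143 and 153 CPM in siControl (log2 change 0.89, SE 0.08, adjusted p = 4.4e-08). SPRY1 was 2.19-fold higher in siControl_2 (log2 change 1.13, SE 0.21, adjusted p = 7.2e-04) and ETV1 1.22-fold higher (log2 change 0.29, SE 0.07, adjusted p = 0.0079). These 3 of 10 genes were called higher and 0 lower, against 5.43% and 4.88% of all tested genes and 10.3% in either direction. At an unadjusted p under 0.05 the counts were 4 higher and 0 lower, as they were by DESeq2. ETV5 was at 119.9 ± 0.652 CPM in siControl_2 and 104 ± 0.614 CPM in siControl, with no overlap (log2 change 0.20, SE 0.07, adjusted p = 0.0549). DUSP4, which was not called between the control sets, averaged 199 ± 10.2 CPM in siControl_2 and 196 ± 2.34 CPM in siControl. The labels do not say how the control sets were made, and a control set and the day or batch of its libraries cannot be told apart.

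With siControl as its control, the double knockdown had ETV5 at a log2 change of -1.79 and DUSP4 at -1.01, and SPRY2 was also called lower. SPRY4, at 142, 146 and 115 CPM in the double knockdown, then stood next to 159.6, 143 and 153 CPM in siControl, and its change was -0.18 (adjusted p = 0.070). SPRY1 was then at -0.12 (adjusted p = 0.71), ETV4 at -0.23 (adjusted p = 0.11) and DUSP6 at -0.14 (adjusted p = 0.15), all uncalled, while ETV1 and SPRED1 were called higher at 0.34 and 0.28. Set against all 6 control libraries together, 7 genes were lower and 2 higher. For the difference from siZFX, siControl on both sides gave SPRY4 a change of 0.11 (adjusted p = 0.32) and SPRY1 a change of -1.11 (adjusted p = 2.6e-04).

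**Figure D3:**
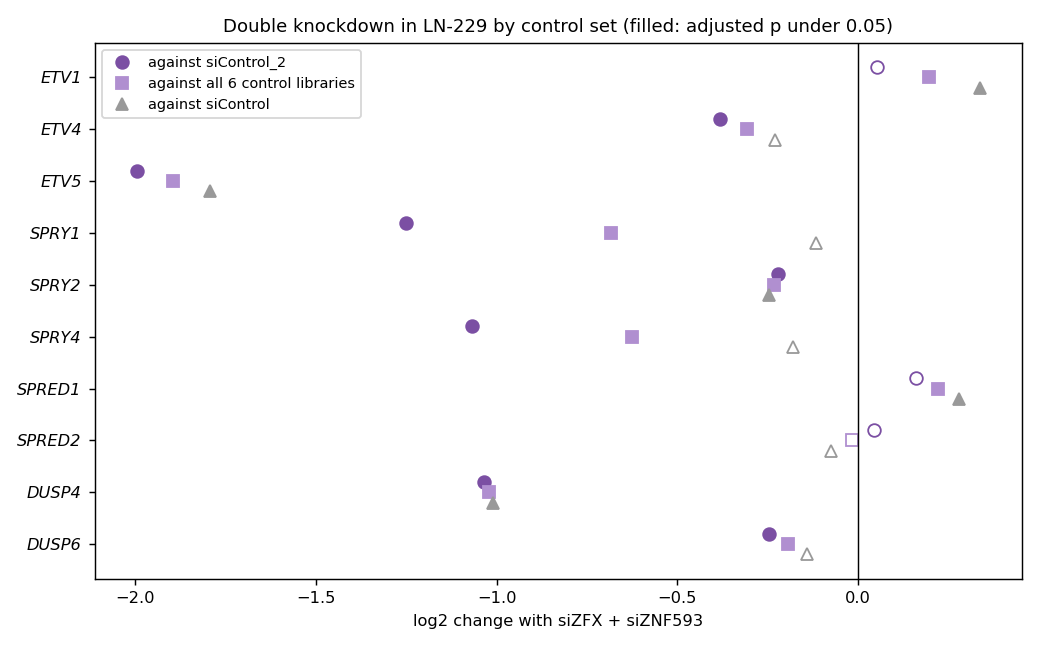
Log2 change of each gene in the double knockdown (horizontal axis) against siControl_2 (circles), all 6 control libraries (squares) and siControl (triangles), with filled marks where the adjusted p is under 0.05. ETV5 and DUSP4 stay within -1.996 to -1.79 and -1.03 to -1.01, while SPRY1 and SPRY4 lie near 0 against siControl.

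Genes whose levels followed ETV5 across the 15 LN-229 libraries were searched among 10619 protein-coding genes with a mean of at least 5 CPM. The 10 genes themselves were left out of this search. The measure was the root mean square difference of log2(CPM + 0.5) after each gene was centred on its own mean, where 0 is an identical profile. The nearest was TGM2, a transglutaminase, at 0.20, with means of 88.6 CPM in siZFX, 21.4 in siZNF593, 32.3 in the double knockdown, 101 in siControl and 124 in siControl_2. FAM84B was at 0.20, PLOD1, a collagen lysyl hydroxylase, at 0.23, GTF3C6, a subunit of a general factor of RNA polymerase III, at 0.27, and TFRC, the transferrin receptor, at 0.27. For SPRY4 the nearest were IER3, an immediate early gene, at 0.20, CD22 at 0.22, GNG7 at 0.25, IFIT2 and NPTX2 at 0.27. Like SPRY4, IER3 was called higher in siControl_2, at 54.3 ± 7.07 CPM, against 33.1 ± 2.71 CPM in siControl. These distances describe the libraries and carry no test.

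Other genes of the pathway were counted by list in the double knockdown against siControl_2, where 17.6% of all tested genes were higher, 20.6% lower and 38.2% either. Of 16 other genes known to be induced by ERK, 2 were higher and 5 lower, with a median log2 change of -0.22, and of 13 other negative regulators of RAS and ERK, 4 were higher and 5 lower, with a median of -0.15. The 16 genes also differed between the control sets. In siControl_2 relative to siControl, 2 of them were called higher and 6 lower (median -0.36), against 5.43% and 4.88% of all tested genes. How far this shaped the list's counts in the double knockdown was not tested. LIF, a cytokine gene, fell to 57.4 ± 18.2 CPM in the double knockdown, against 254 ± 3.59 CPM in siControl_2 (log2 change -2.15, SE 0.18, adjusted p = 9.5e-07), and also fell with siZFX (-1.51, adjusted p = 2.2e-05). IER3 and EGR3, an early growth response factor, fell by 0.99 and 0.77 on the log2 scale, and HMGA2, a chromatin architectural protein, rose by 0.82. HMGA2 differed between the control sets by -0.98 in siControl_2 relative to siControl. Among the negative regulators, DUSP9, at 21, 17 and 9 counts in the double knockdown and 43, 38 and 55 counts in siControl_2, had a log2 change of -1.86, DUSP7 of -0.96 and PEBP1, an inhibitor of RAF, of -0.88, and SPRY3 rose by 0.85. Means were also lower with siZFX than in siControl for EGR3 (8.18 against 27.4 CPM), DUSP7 (47.0 against 67.0 CPM) and PEBP1 (99.8 against 177 CPM). DUSP9 had 4, 9 and 7 counts with siZFX, against 43, 48 and 43 counts in siControl.

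Upstream, 4 of the 22 tested receptor and ligand genes of 25 listed were higher and 9 lower (median -0.0016). In siControl_2 relative to siControl, 2 of these 22 were called higher and 5 lower (median -0.25). PDGFA, a ligand of the PDGF receptors, had 107 ± 16.3 CPM in the double knockdown, against 291 ± 14.7 CPM in siControl_2 (log2 change -1.45, SE 0.09, adjusted p = 2.8e-11), and PDGFRB, a receptor for PDGF, fell by 1.26. PDGFA also differed between the control sets, at 291 ± 14.7 CPM in siControl_2 and 179 ± 2.18 CPM in siControl (log2 change 0.70, adjusted p = 5.8e-06). FGFR2 had 0, 2 and 0 counts in the double knockdown and 6, 6 and 12 in siControl_2, and EREG, an EGF receptor ligand, 2, 7 and 0 counts against 18, 11 and 4, so both were called lower at counts too few for a fold. FGFR1, picked after its values were seen, had 34.7 ± 6.96 CPM in the double knockdown and 62.3 ± 6.13 CPM in siControl_2 (log2 change -0.84, adjusted p = 2.1e-06). FGFR4 and KIT, picked likewise, went the other way. FGFR4 had 61.9 ± 19.2 CPM in the double knockdown and 32.4 ± 1.66 CPM in siControl_2, and KIT 6.61 ± 0.326 and 3.24 ± 0.439 CPM. Between adaptors and ERK, 4 of 21 tested genes were higher and 6 lower (median -0.08). PTPN11, the phosphatase SHP2 that passes receptor signals to RAS, fell by 0.91 on the log2 scale to 105 ± 5.85 CPM in the double knockdown, against 196 ± 3.92 CPM in siControl_2, and was at 204 ± 1.42 CPM with siZFX and 212 ± 11.3 CPM in siControl. HRAS, a RAS gene, fell by 0.87, and the adaptor gene FRS2 rose by 0.54. Of the 12 genes for the repressor and turnover of ETV proteins and other ETS factors, 3 were higher and 2 lower (median -0.02). DET1, part of a ubiquitin ligase that acts on ETV proteins, rose by 1.23, ETS1 rose by 0.53, ETS2 and ELK4 fell by 0.81 and 0.43, and CIC averaged 119.8 ± 33.4 CPM in the double knockdown and 126 ± 3.40 CPM in siControl_2 (adjusted p = 0.73).

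In DKO 293T cells the 10 genes stood in another order. SPRY1, the scarcest of them in LN-229, was the most abundant in pCMV6 cells at 13.6 ± 0.884 CPM per kb, followed by SPRY2 at 12.3 ± 0.313, SPRED2 at 6.61 ± 0.588 and SPRED1 at 2.73 ± 0.0935 CPM per kb. ETV4 was at 1.22 ± 0.167, ETV5 at 0.598 ± 0.0386 and DUSP4 at 0.503 ± 0.0797 CPM per kb, each apart from its neighbours. ETV1, SPRY4 and DUSP6 lay between 0.131 and 0.196 CPM per kb, each overlapping its neighbour in the order. DUSP6, at 6 to 23 counts per library over the 3 groups, was the scarcest in pCMV6 cells. The lines were fitted apart, and no test was made between them.

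**Figure D4:**
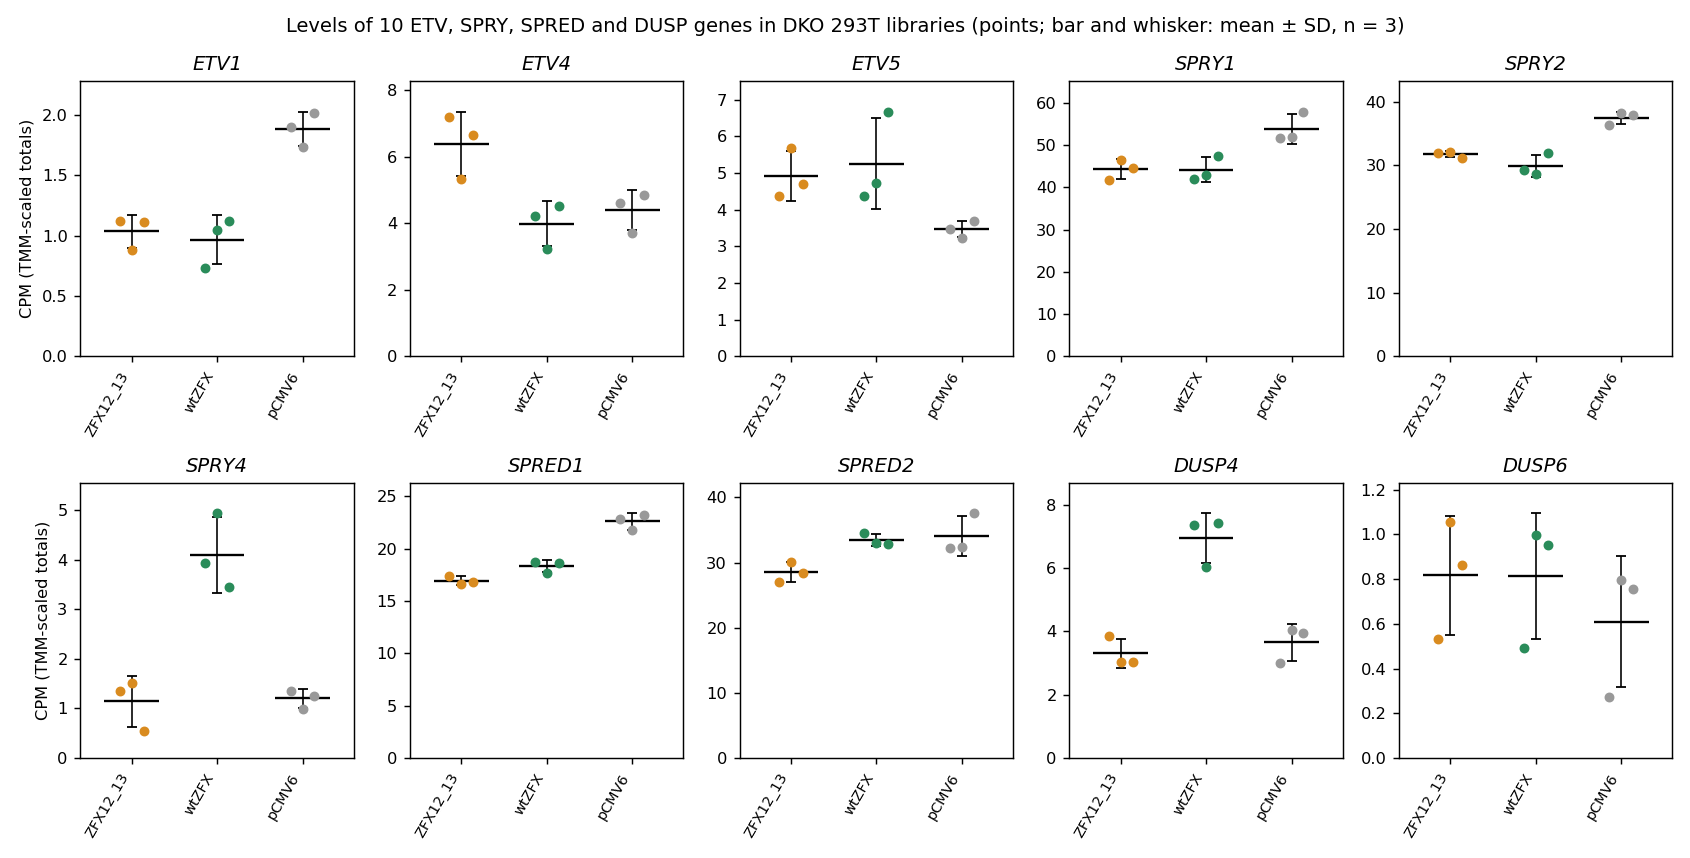
Levels of the 10 genes in DKO 293T cells in CPM over TMM-scaled totals (vertical axes, from 0), 1 panel per gene, with 1 point per library, a bar at the mean and a whisker of ± SD (n = 3). SPRY4 and DUSP4 are higher in the wtZFX libraries, at 3.44 to 4.93 and 6.03 to 7.42 CPM, than in those of ZFX12_13 or pCMV6.

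wtZFX against pCMV6 asks what returning ZFX does to these genes, and it shares no library with the choosing contrast. ZFX was 69.4-fold higher in wtZFX and 84.5-fold higher in ZFX12_13 cells than in pCMV6 cells, reads of the constructs included. SPRY4, DUSP4 and ETV5 rose and ETV1, SPRY1, SPRY2 and SPRED1 fell, so 3 of the 10 genes were higher and 4 lower, against 23.2% and 19.2% of all tested genes and 42.3% in either direction. The 3 higher genes lay above pCMV6 with no overlap between libraries, as did 28.4% of all tested genes. The median log2 change was -0.08 over the 10 genes and -0.02 over all tested genes.

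SPRY4 had 80, 99 and 83 counts (3.93, 4.93 and 3.44 CPM) in wtZFX cells, against 30, 21 and 25 counts (1.36, 0.985 and 1.26 CPM) in pCMV6 cells. The groups were far apart, at a 3.38-fold higher level with wtZFX (log2 change 1.76, SE 0.24, 95% interval 1.26 to 2.26, adjusted p = 2.3e-06). DUSP4 had 7.36, 6.03 and 7.42 CPM in wtZFX cells, against 2.99, 4.04 and 3.94 CPM in pCMV6 cells (log2 change 0.93, SE 0.15, adjusted p = 2.3e-05). ETV5 had 4.37, 4.74 and 6.67 CPM in wtZFX cells, against 3.49, 3.24 and 3.68 CPM in pCMV6 cells (log2 change 0.61, SE 0.17, adjusted p = 0.0051). Replicate 3 of wtZFX was the highest library for ETV5, and without it the log2 change was 0.39 (adjusted p = 0.085).

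ETV1 had 15, 21 and 27 counts in wtZFX cells and 42, 37 and 40 counts in pCMV6 cells, with no overlap (log2 change -0.95, SE 0.25, adjusted p = 0.0037). SPRY1, with 42.1, 43.0 and 47.5 CPM in wtZFX cells and 51.8, 51.9 and 57.9 CPM in pCMV6 cells, fell by 0.28 on the log2 scale (SE 0.07, adjusted p = 0.0012). SPRY2 and SPRED1 fell by 0.32 and 0.30 (adjusted p = 3.2e-04 and 0.0023). ETV4, SPRED2 and DUSP6 were not called, with 95% intervals of -0.47 to 0.21, -0.17 to 0.12 and -0.39 to 1.27.

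ZFX12_13 against pCMV6, which uses the same pCMV6 libraries, had 2 of the 10 genes higher and 5 lower, against 20.9% and 15.7% of all tested genes and 36.6% in either direction. ETV4 had 7.20, 5.33 and 6.66 CPM in ZFX12_13 cells, against 4.62, 3.71 and 4.84 CPM in pCMV6 cells (log2 change 0.54, SE 0.16, adjusted p = 0.0096). The ETV4 call was lost in 3 of 16 alternatives, among them without replicate 2 of pCMV6 (adjusted p = 0.067). ETV5 had 4.37, 5.68 and 4.69 CPM in ZFX12_13 cells, above its 3.24 to 3.68 CPM in pCMV6 cells (log2 change 0.50, SE 0.18, adjusted p = 0.0288), and its call was lost in 5 of 16 alternatives, with DESeq2 among them. ETV1 fell by 0.86 (adjusted p = 0.0118), SPRED1 by 0.41 (adjusted p = 1.7e-04), SPRY1 by 0.28 (adjusted p = 0.0019), SPRED2 by 0.26 (adjusted p = 0.0088) and SPRY2 by 0.24 (adjusted p = 0.0063). The ETV1 call was lost with DESeq2 and without replicate 2 of ZFX12_13, and that of SPRED2 without replicate 3 of pCMV6 (adjusted p = 0.091).

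SPRY4 had 23, 26 and 9 counts in ZFX12_13 cells, against 30, 21 and 25 counts in pCMV6 cells (log2 change -0.06, 95% interval -0.70 to 0.58), and the libraries overlapped. DUSP4 had 3.84, 3.05 and 3.02 CPM in ZFX12_13 cells and 2.99, 4.04 and 3.94 CPM in pCMV6 cells (log2 change -0.14, 95% interval -0.51 to 0.22).

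The constructs were then set against each other. Between ZFX12_13 and wtZFX cells, 1 of the 10 genes was higher and 3 were lower, against 9.73% and 10.6% of all tested genes and 20.4% in either direction. SPRY4 was 3.52-fold lower in ZFX12_13 cells than in wtZFX cells (log2 change -1.82, SE 0.26, adjusted p = 1.1e-05), and DUSP4 was 2.10-fold lower (log2 change -1.07, SE 0.16, adjusted p = 2.5e-05). ETV4 was 1.59-fold higher in ZFX12_13 cells (log2 change 0.67, SE 0.16, adjusted p = 0.0038). SPRED2, at 28.5 ± 1.54 CPM in ZFX12_13 cells and 33.5 ± 0.923 CPM in wtZFX cells, fell by 0.23 (adjusted p = 0.0275), a call lost on leaving out any 1 of 4 libraries. ETV5 did not pass, at a log2 change of -0.11 (95% interval -0.45 to 0.23, adjusted p = 0.71), and neither did ETV1 (0.09, 95% interval -0.51 to 0.69), SPRY1 (0.0022, 95% interval -0.14 to 0.14), SPRY2 (0.08), SPRED1 (-0.11) or DUSP6 (-0.0038, 95% interval -0.82 to 0.81).

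**Figure D5:**
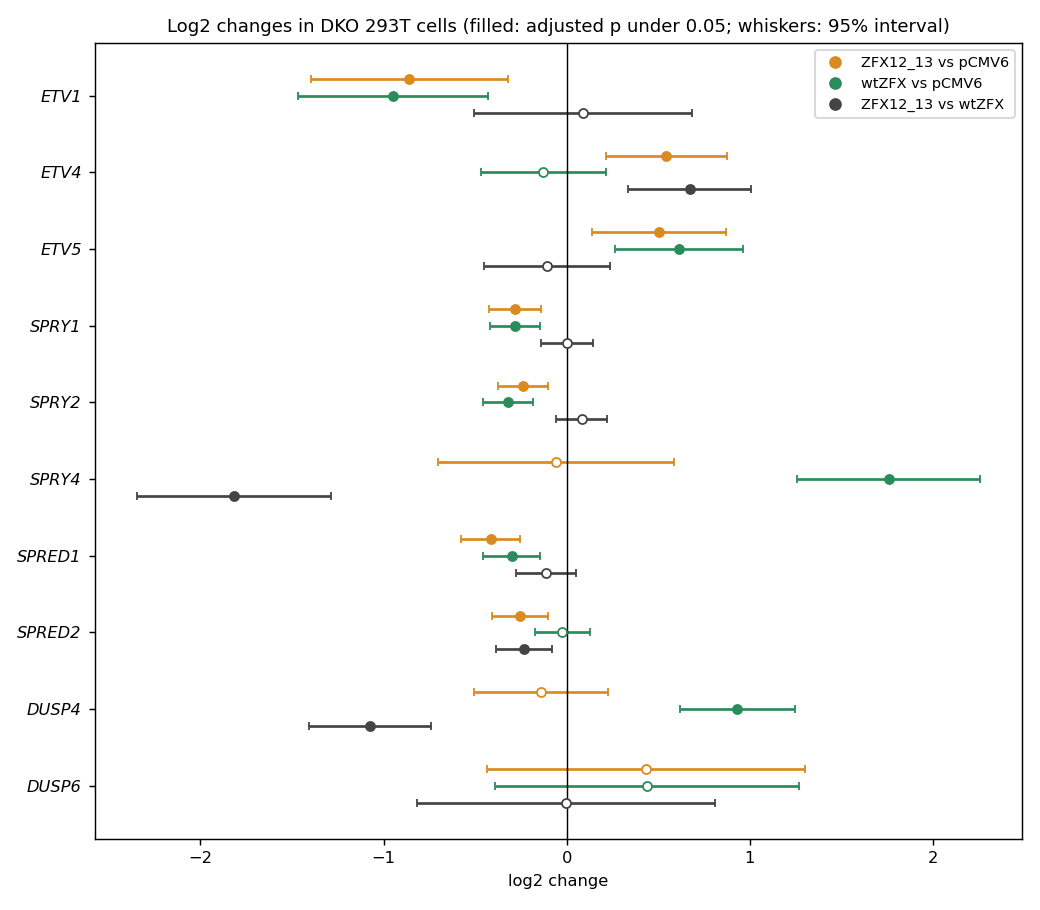
Log2 changes of the 10 genes in DKO 293T cells (horizontal axis) with 95% intervals, for ZFX12_13 against pCMV6, wtZFX against pCMV6 and ZFX12_13 against wtZFX, with filled points where the adjusted p is under 0.05. SPRY4 and DUSP4 are at 1.76 and 0.93 with wtZFX, and at -0.06 and -0.14 with ZFX12_13.

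Among the other genes induced by ERK, 8 of 16 were called higher in wtZFX cells than in pCMV6 cells (median log2 change 0.34), and 7 were higher and 1 lower in ZFX12_13 cells (median 0.12). Of all tested genes 23.2% were higher in wtZFX cells, and 20.9% higher and 15.7% lower in ZFX12_13 cells. Of 22 tested receptor and ligand genes, 9 were called higher and 2 lower in wtZFX cells than in pCMV6 cells (median 0.21). Over all tested genes these shares were 23.2% and 19.2%. PDGFA, picked from that list, which fell in the double knockdown of LN-229, had 20.7 ± 1.10 CPM in wtZFX cells, against 1.79 CPM (45, 31 and 37 counts) in pCMV6 cells, and 15.6 ± 0.414 CPM in ZFX12_13 cells, against the same pCMV6 libraries. In LN-229 PDGFA averaged 89.1 CPM with siZNF593, 134 CPM with siZFX and 179 CPM in siControl.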

How the data were processed

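Per the submitters' processing notes, the processing named STAR, HTSeq and DESeq2 with hg38/GRCh38, and versions are not given in the sources used here. The authors deposited 1 table of raw read counts per gene for each library, with an unstranded column and 1 column per strand. The unstranded counts were used, since reads fell evenly on the strands (50.1% to 50.7%). All 58721 gene IDs matched GENCODE 29. Summary rows that name no gene stayed out of library sizes and tests: unmapped reads were 1.34% to 5.44%, multimapping 2.11% to 3.44%, without a feature 4.60% to 11.1%, and ambiguous 9.49% to 11.1% of reads. ZNF593 loses its unstranded reads to an overlapping gene, so its level was checked on the sum of both stranded columns.

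The 15 LN-229 and 9 DKO libraries were fitted apart with edgeR 4.0.16 in R 4.3.3 (TMM factors, filterByExpr, robust quasi-likelihood fit, 1 coefficient per group), and every adjusted p-value is Benjamini-Hochberg over all genes tested in that line. DESeq2 1.42.0 was an alternative. The steps were tested on simulated data. The genes and pathway lists were chosen with earlier results of these data known. From each list, up to 4 genes called in the double knockdown with the largest changes are named, except 1 gene that is not reported here. Replicate numbers do not pair the libraries: same-numbered libraries of different groups had correlations of their deviations from group means of -0.09 to 0.10 in LN-229 and -0.05 to 0.04 in DKO cells.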

Additional observations from a re-analysis of the deposited data

How the results depend on the processing

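Of the log2 changes under alternatives, 1103 kept direction and side of the threshold, 60 lost a call, 18 gained one and 36 changed sign. The cause was not tested except where fewer calls follow from the setting itself. Requiring at least 1.5-fold left 4 of the 10 genes in the double knockdown, 2 with siZFX, 4 with wtZFX and 1 with ZFX12_13 against pCMV6, and over all genes 3335, 2442, 1892 (difference of effects), 718 (control sets), 2727, 2277 and 1175 (ZFX12_13 against wtZFX). Fitting only the compared groups left 4 genes in the double knockdown, and gave 3700 genes between the control sets. GC and length offsets gave 3138 there, against 1824 in the fit reported. With siControl in place of siControl_2, the difference had 6109 genes. Leaving out 1 library gave 4 to 8 genes in the double knockdown, where the 8th was SPRED1 (0.26 without its replicate 1, adjusted p = 0.0094), and 1204 to 1367 genes between the control sets. Upper-quartile factors gave 1 higher and 5 lower genes in the double knockdown.

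Changes of sign were mostly near 0. Between ZFX12_13 and wtZFX, SPRY1 was -0.0031 with RLE factors, -0.017 with no filter, -0.017 with GC and length offsets and -0.0048 with DESeq2, and DUSP6 was 0.0042 with upper-quartile factors, 0.0081 with the replicate block and 0.051 with both strands summed. SPRED2 in the difference was 0.018 with upper-quartile factors, and ETV1 in the double knockdown -0.067 with GC and length offsets. Against other controls, SPRED2 in the double knockdown was -0.076 (siControl) and -0.015 (all 6 libraries), SPRY4 in the difference 0.11, and with siControl_2 siZFX gave ETV4 -0.066, SPRY1 -0.14 and SPRED1 -0.10 and siZNF593 gave SPRED1 -0.028. Leaving out 1 library gave ranges that cross 0 for DUSP4 in siControl_2 against siControl (-0.013 to 0.054), for DUSP6 in ZFX12_13 against wtZFX (-0.25 to 0.23), for ETV1 in ZFX12_13 against wtZFX (-0.068 to 0.22), for ETV4 in wtZFX against pCMV6 (-0.24 to 0.0066), for ETV5 in ZFX12_13 against wtZFX (-0.23 to 0.11), for SPRED1 in siZFX against siControl (-0.037 to 0.051), for SPRED2 in double knockdown effect minus siZFX effect (-0.055 to 0.020), for SPRED2 in wtZFX against pCMV6 (-0.063 to 0.051), for SPRY1 in ZFX12_13 against wtZFX (-0.035 to 0.059), for SPRY2 in siControl_2 against siControl (-0.064 to 0.0035) and for SPRY4 in ZFX12_13 against pCMV6 (-0.32 to 0.26).

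The replicate block, whose numbers do not pair the libraries, left 7, 6, 6, 3, 7, 7 and 4 genes called in the double knockdown, siZFX, their difference, the control sets, wtZFX, ZFX12_13 against pCMV6 and ZFX12_13 against wtZFX, each count as without the block. DUSP6, ETV1 and SPRY4 in DKO cells rest on few counts, which limits their precision.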
